A study of Mus musculus with 2 samples.

Results

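Chemokines are small secreted proteins that direct the movement of cells, and their receptors are the cell-surface proteins that read them. The gene set comprised 60 protein-coding genes of the mouse, 38 ligands and 22 receptors, out of 21474 protein-coding genes and 43346 Ensembl genes in the tables. Members were taken by name: every protein-coding symbol built as Ccl, Cxcl, Ccr, Cxcr or Ackr with its number, together with Xcl1, Xcr1, Cx3cl1, Ppbp and Ccrl2. No measured value enters this naming rule, though the family was picked with earlier results of these data known. Cxcl11 also has such a name, but the annotation lists it as a polymorphic pseudogene, and it was left out with levels of 0.03 and 0 TPM.

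RNA came from whole lung of healthy B6NCrl mouse embryos at 15.5 days, male and female pooled, with no treatment or genetic change named in the labels. The 2 libraries form a single group: replicate 1 was a pool of 78 embryos and replicate 2 a pool of 62. Each pool has 1 library of total RNA longer than 200 nt, started from 10 ng, so a difference between embryo pools and one of dissection or library making cannot be told apart. No test of a condition exists in such a design, and the questions are which members the tissue contained, at what level, and how far the pools differed. Levels are in TPM, a gene's share of all transcripts after correction for transcript length, on a scale with the same total in each library, so that genes can be set side by side. Where a pair of values is printed, that of replicate 1 comes first, and a mean is followed by its SD (n = 2). In whole tissue, a lower level from fewer cells of a type and one from less RNA per cell cannot be told apart.

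Chemokines are grouped by their first conserved cysteines, which are adjacent in CC ligands, separated by a single residue in CXC ligands and by several in Cx3cl1. They signal through receptors coupled to G proteins, while atypical receptors bind ligands without that coupling and take them up or hold them. In the developing lung, Cxcl12 and its receptor Cxcr4 are known for guiding vessel growth and blood-forming cells, and CC ligands for drawing in monocytes and macrophages. Other family members are best known from lymphoid organs, skin or thymus.

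The coding stretches around the first cysteines show how these classes differ in the RNAs that were found. They are 1 detected member of each class for which a sequence could be printed, with a second CXC ligand of the ELR kind. Sequences are GENCODE M21 transcripts on GRCm38, 5′ to 3′ on the gene's strand. Capitals mark the codons from the first to the second cysteine and, where present, the preceding codons for glutamate, leucine and arginine, the ELR motif of ligands that attract neutrophils.
Cxcl12, chr6:117171496-117171528, plus strand: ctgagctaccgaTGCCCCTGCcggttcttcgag
Cxcl15, chr5:90795207-90795248, plus strand: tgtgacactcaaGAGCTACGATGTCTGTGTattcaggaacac
Ppbp, chr5:90769064-90769105, plus strand: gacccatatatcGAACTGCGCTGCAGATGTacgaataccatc
Ccl21a, chr4:42773723-42773752, minus strand: gggggtcaggacTGCTGCcttaagtacagc
Cx3cl1, chr8:94778039-94778077, plus strand: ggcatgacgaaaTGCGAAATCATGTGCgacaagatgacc
All of these stretches are exonic. Cxcl12 has 1 codon between its cysteines at codons 30 and 32 and no ELR motif, whereas Cxcl15 and Ppbp carry it. Ccl21a has cysteines at codons 31 and 32, and Cx3cl1 has 3 codons between codons 32 and 36.

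Ligands led by Cxcl12 and Ccl11 made up most of the chemokine RNA of the embryonic lung. Of the 60 members, 22 were detected, meaning 1 TPM or more in both libraries, which is 36.7% beside 60.7% of all protein-coding genes. They comprised 17 of 38 ligands, 3 of 17 signalling receptors and 2 of 5 atypical receptors. A further 5 members reached 1 TPM in 1 library only, 27 stayed under it in both and 6 were listed at 0. The ligand TPM summed to 385 and 364, and that of all receptors to 48.8 and 44.1. In both libraries Cxcl12, Ccl11 and Ccl21a led the ligands, with 60.0% and 62.2% of the ligand TPM. Ackr3, Cxcr4 and Ccr2 led the receptors, with 71.3% and 75.2% of theirs.

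**Figure D1:**
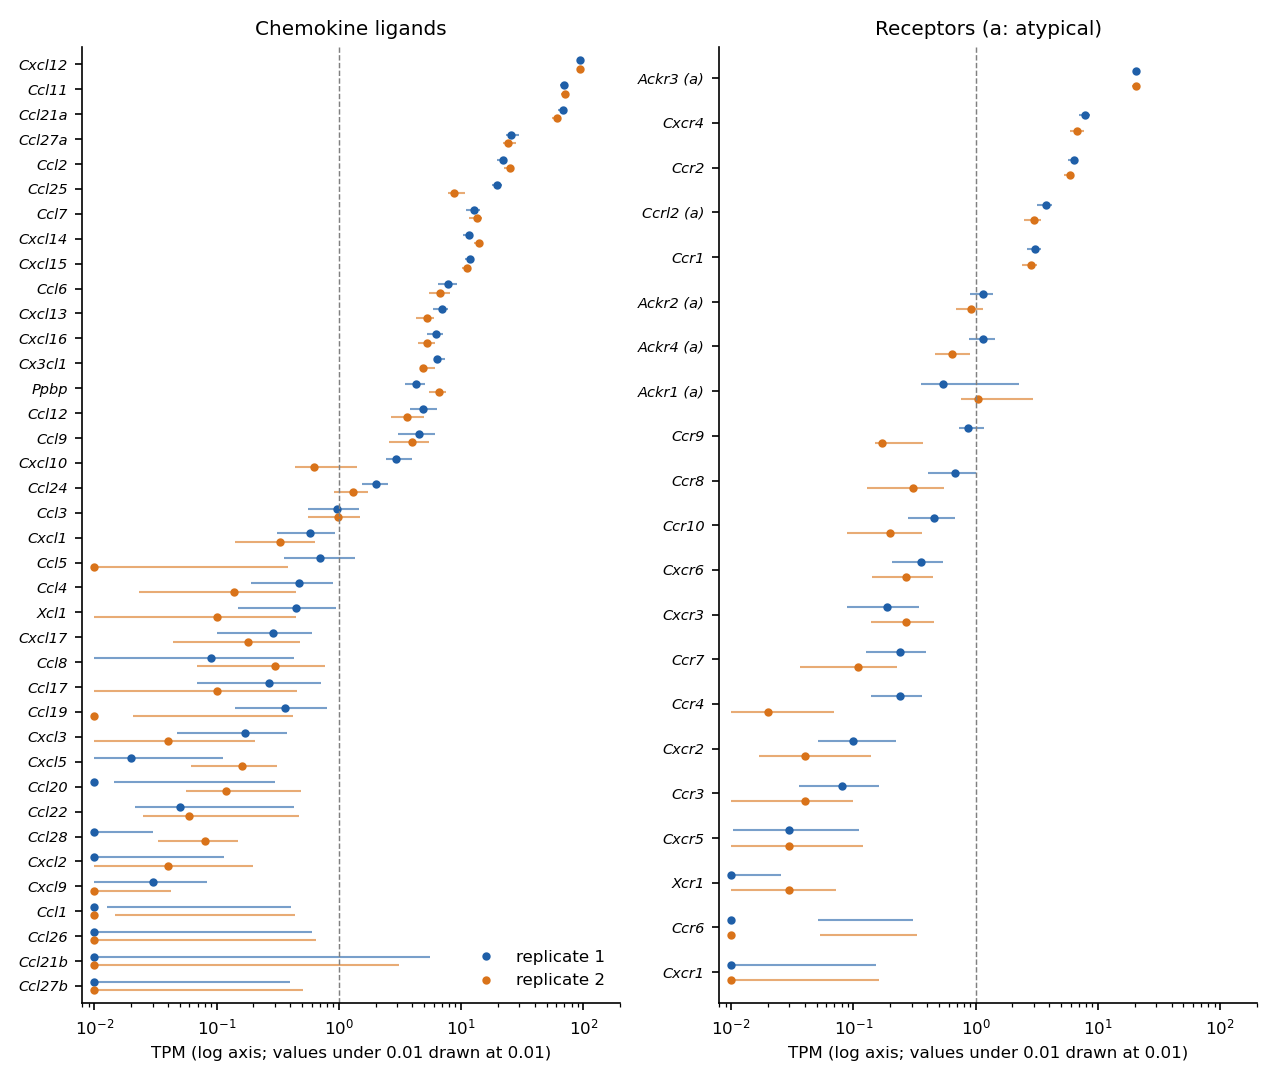
TPM of the members on a log axis (1 not shown), ligands on the left and receptors on the right, one point per library with its deposited interval as a line. The dashed line is the minimum of 1 TPM, and Cxcl12, at 94.5 and 94.3 TPM, heads the ligands while Ackr3, at 20.6 and 20.5 TPM, heads the receptors.

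Among CXC ligands without the ELR motif, 4 of 7 were detected. Cxcl12 (ENSMUSG00000061353.7; chromosome 6, 117168535 to 117181367, plus strand) had 94.52 and 94.3 TPM, a mean of 94.4 ± 0.156, above the level of 92.1% of protein-coding genes. The libraries gave nearly the same level, from 5842 and 5353 estimated reads. Cxcl14, a ligand found in epithelia and their surrounding stroma, had 11.62 and 14.1 TPM. Cxcl13, which draws B cells into lymphoid tissue, had 6.94 and 5.23 TPM. Cxcl16, a ligand made as a membrane protein that also binds oxidised lipids, had 6.21 and 5.25 TPM. Cxcl14 was higher in replicate 2, with intervals of 10.4 to 12.4 and 12.7 to 14.9 TPM that did not overlap, while the other pair was lower there with overlapping intervals. Exons of Cxcl16 overlap Zmynd15 on the other strand over 18.3% of their length, and Zmynd15 had 0.37 and 0.59 TPM. Cxcl10 had 2.92 and 0.63 TPM and is taken up with the comparison of the pools. Cxcl9 and Cxcl17 did not exceed 0.29 TPM in either library.

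Among ELR ligands, which attract neutrophils, 2 of 6 were detected. Cxcl15, known as lungkine for its expression in lung epithelium, had 11.93 and 11.24 TPM. Ppbp, the platelet basic protein of platelet granules, had 4.28 and 6.55 TPM. The Cxcl15 values lay close together, while Ppbp was higher in replicate 2 without overlap of its intervals, 3.48 to 5.04 and 5.46 to 7.46 TPM. Platelet markers had summed levels of 67.2 and 65.7 TPM, with 5 of 7 detected and none at 0 in both libraries. The classical inducible ligands Cxcl1, Cxcl2, Cxcl3 and Cxcl5 ranged from 0 to 0.58 TPM.

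Inflammatory CC ligands had 7 of 13 members detected, together at 125 and 127 TPM. Ccl11, or eotaxin, which attracts eosinophils (ENSMUSG00000020676.2; chromosome 11, 82057823 to 82062955, plus strand), had 69.13 and 71.0 TPM. It was the second member by level, under Cxcl12 in both libraries with separate intervals. Ccl2, the main attractant of monocytes, had 21.94 and 25.06 TPM. Ccl7, another monocyte attractant, had 12.76 and 13.49 TPM. All of the last 3 ligands were higher in replicate 2 by a small margin and had overlapping intervals. Ccl6 had 7.77 and 6.72 TPM, and Ccl9 4.53 and 4.0 TPM, both ligands that mouse myeloid cells make. Ccl12, a further ligand of Ccr2, had 4.92 and 3.62 TPM. Ccl24, or eotaxin-2, was the lowest detected member at 2.03 and 1.3 TPM. These 4 were higher in replicate 1, with overlapping intervals. Ccl3 lay just under the minimum at 0.96 and 0.98 TPM, Ccl4, Ccl5 and Ccl8 between 0 and 0.7 TPM, and Ccl1 and Ccl26 were listed at 0.

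Of the CC ligands with homeostatic roles, 3 of 10 were detected. Ccl21a, a ligand of lymphatic vessels and lymphoid stroma that guides dendritic cells and T cells, had 67.68 and 61.03 TPM. Ccl27a, known as the skin chemokine of keratinocytes, had 25.7 and 24.02 TPM. Ccl25, the thymus-expressed chemokine, had 19.59 and 8.67 TPM. The first 2 differed little between pools, and Ccl25 was far lower in replicate 2. Lymphatic endothelial markers stood at 76.1 and 68.9 TPM in sum, led by Lyve1 at 46.2 and 40.28 TPM, with 4 of 5 detected and none at 0 in both libraries. The lowest of them were Prox1 at 1.7 and 1.47 TPM and Reln at 1.48 and 0.95 TPM. The other members, Ccl17, Ccl19, Ccl20, Ccl22 and Ccl28, ranged from 0 to 0.36 TPM.

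Some of these levels rest on how reads were divided between near copies. The coding sequence of Ccl21a differed from that of Ccl21b at 2 of 402 nt, and that of Ccl27a from Ccl27b at 3 of 363 nt. A further copy, Ccl21c, matched no gene name in the tables and was not analysed here. Ccl21b and Ccl27b were listed at 0 in both libraries, but the deposited interval of Ccl21b reached 5.52 and 3.11 TPM. The Ccl21a and Ccl27a levels therefore include any reads of these copies, Ccl21c included, that were assigned to them. By counting alone, a count of 0 reads allows up to 3 reads. For the 6 members listed at 0 this corresponds to 0.085 to 0.666 TPM, by gene length and library. It leaves out reads assigned to a near copy.

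Cx3cl1, or fractalkine, a ligand tethered to the membrane of endothelial and epithelial cells, had 6.35 and 4.92 TPM. Xcl1, made by activated lymphocytes, had 0.45 and 0.1 TPM, from 5 and 1 reads.

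Signalling receptors were low beside the ligands. Cxcr4, the receptor of Cxcl12 on endothelial and blood-forming cells (ENSMUSG00000045382.6; chromosome 1, 128588199 to 128592293, minus strand), had 7.86 and 6.76 TPM. Ccr2, the monocyte receptor, had 6.36 and 5.92 TPM. Ccr1, carried by monocytes and neutrophils, had 3.07 and 2.86 TPM. All 3 were slightly higher in replicate 1, with overlapping intervals. A further 13 signalling receptors stayed under 1 TPM in both libraries, Ccr9 being the highest at 0.87 and 0.17 TPM, and Ccr6 and Cxcr1 were listed at 0.

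Atypical receptors had the highest receptor level. Ackr3, which binds Cxcl12 and removes it from the surroundings of cells (ENSMUSG00000044337.5; chromosome 1, 90203980 to 90216751, plus strand), had 20.6 and 20.48 TPM. Ccrl2, which binds the attractant chemerin, had 3.74 and 3.01 TPM. The other members straddled the minimum: Ackr2, a scavenger of inflammatory CC ligands, had 1.14 and 0.91 TPM. Ackr4, a scavenger of Ccl19, Ccl21 and Ccl25, had 1.14 and 0.64 TPM. Ackr1, which is carried by red cells and venules, had 0.54 and 1.04 TPM. None of these members separated between libraries. Exons of Ackr1 overlap Cadm3 on the same strand over 25.7% of their length, and those of Ackr4 overlap Acad11 over 8.9%. Use of strand in the counting is not given in the sources used here, so reads of such overlapping genes may not be told apart.

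In the order of the 22 detected members, most neighbours were not separate. A step counted as separate where the order was alike in both libraries and neither had overlapping intervals, which held for 4 of 21 steps. Cxcl12 exceeded Ccl11 by a ratio of 1.35 ± 0.0277, and Ccl21a exceeded Ccl27a by a ratio of 2.59 ± 0.0655. Cxcl15 exceeded Cxcr4 by a ratio of 1.59 ± 0.102. Ccr1 exceeded Ccl24 by a ratio of 1.86 ± 0.486. From Cxcr4 down to Ccr1, a run that holds Ccl6, Ccr2, Cxcl13, Cxcl16, Cx3cl1, Ppbp, Ccl12, Ccl9 and Ccrl2, no neighbouring step was separate.

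Ligands and receptors that are known to bind each other were then set side by side over 40 listed pairs. Both partners were detected in 8 pairs, the ligand only in 10, the receptor only in 3 and neither in 19. Cxcl12 was 13 ± 1.36 times the level of Cxcr4 and 4.6 ± 0.0114 times that of Ackr3. Both ratios were separate in both libraries, and Ackr3 had the higher level of the receptor pair. Among ligands of Ccr2, Ccl2 reached 3.84 ± 0.554 times and Ccl7 2.14 ± 0.193 times the receptor level. Ccl12 was 0.693 ± 0.115 times Ccr2, with intervals that overlapped in replicate 1 but not in replicate 2. Ccl6 was 2.44 ± 0.128 times Ccr1, and the ratio of Ccl9 to Ccr1, 1.44 ± 0.0544, was not separate. Cx3cl1 stood beside its receptor Cx3cr1, a macrophage gene at 7.82 and 6.5 TPM, at a ratio of 0.784 ± 0.039 that was not separate either.

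Several abundant CC ligands had a listed receptor under 1 TPM in both libraries. Ccl11 had 69.13 and 71.0 TPM while Ccr3, its eosinophil receptor, had 0.08 and 0.04 TPM from 7 and 3 reads. Ccl21a stood against Ccr7, the receptor of T cells and mature dendritic cells, at 0.24 and 0.11 TPM. Ccl27a stood against Ccr10, at 0.46 and 0.2 TPM. In each of these pairs the ligand intervals lay far above those of the receptor in both libraries. The same form, a detected ligand with a receptor under 1 TPM, held for Ccl24 and Ccr3, Cxcl13 and Cxcr5, Cxcl16 and Cxcr6, Ppbp and Cxcr2, and Ccl25 and Ccr9. RNA levels give no measure of protein or of the number of cells that carry a receptor.

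**Figure D2:**
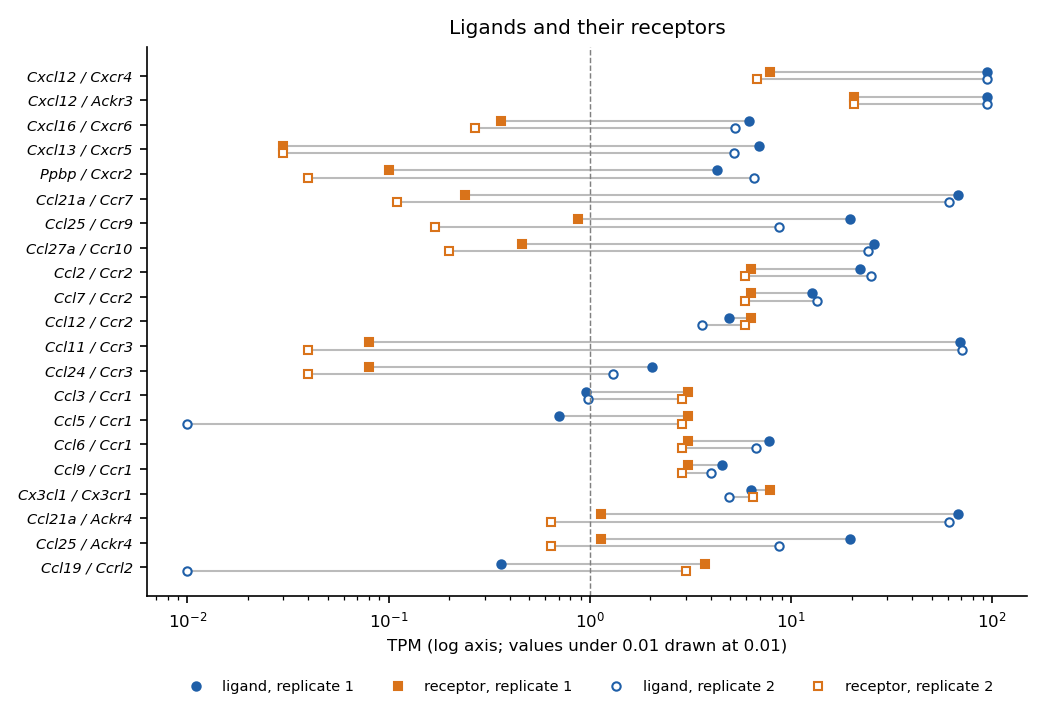
TPM of ligands (circles) and receptors (squares) on a log axis for the 21 pairs with at least 1 detected partner, replicate 1 filled and replicate 2 open, joined by a grey line in each library. The ligand lies to the right of the receptor in most pairs, and the gap is widest for Ccl11 and Ccr3.

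Genes of the wider pathway were taken from lists set up by function. Of 21 genes for receptor coupling and its shut-off, 19 were detected, with median levels of 13.6 and 12.8 TPM. They were led by the G protein subunit genes Gnb1 at 445.93 and 447.53 TPM and Gnai2 at 404.2 and 392.54 TPM, and by Rac1, a GTPase of cell movement, at 313.66 and 299.92 TPM. Pik3r5, a regulatory subunit of a leukocyte kinase, was lowest at 0.6 and 0.15 TPM. All 6 genes for processing of ligands and receptors were detected, among them Mmp2, which trims Cxcl12, at 175.2 and 173.35 TPM, and Dpp4, the peptidase that clips ligand ends, lowest at 25.6 and 21.87 TPM. Of 8 related ligands and receptors outside the naming rule, 7 were detected. Mif, which also binds Cxcr4, was highest at 1354.46 and 1520.64 TPM, followed by Rarres2, the chemerin gene, at 64.26 and 57.99 TPM and, by mean level, the platelet chemokine Pf4 at 49.2 and 47.33 TPM. Of 10 cytokines that induce chemokines, among them Tnf, Il1b and Ifng, 0 were detected in both libraries. Ltb was highest by mean level, at 1.88 and 0.54 TPM, followed by Il4 at 0.98 and 1.01 TPM, and Il17a was listed at 0.

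Defining markers of lung were present in both libraries. All 6 lung epithelial markers were detected, led by Sftpc, and so were all 6 lung mesenchymal and all 7 endothelial markers, with median log2 ratios between libraries of -0.04, 0.02 and -0.02. All 10 macrophage markers were detected, at 239 and 221 TPM in sum. Markers listed for other organs were present too and several differed between the libraries. Whether their RNA came from lung or from other tissue was not tested. Among heart and skeletal muscle markers, with all 7 detected, Myl2 had 25.76 and 119.37 TPM and Myh6 80.27 and 29.88 TPM. Actc1, the highest of them, differed less, at 429.36 and 339.13 TPM. The libraries held 40395850 and 36601054 estimated reads, of which 16821 and 14763 fell on the members.

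Members of the CC and CXC families lie in gene clusters, and detection differed within them. Joined where neighbours lay at most 500 kb apart, 9 clusters held 38 of the 60 members. The cluster on chromosome 11 from Ccl2 to Ccl1 (82035571 to 82305690) had 4 of 6 members detected, Ccl2, Ccl7, Ccl11 and Ccl12, with 109 and 113 TPM in sum. Its other members were Ccl8, at 0.09 and 0.3 TPM, and Ccl1, listed at 0. The chromosome 5 cluster of ELR ligands (90759360 to 90905938) had only Ppbp and Cxcl15 detected among 6. The receptor cluster on chromosome 9 had Ccr1 and Ccr2 detected among 7. Cx3cl1, on chromosome 8, lay between Ccl22 and Ccl17, whose highest value in either library was 0.27 TPM.

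Several members were present as more than 1 transcript. Of the 22 detected members, 10 have a single annotated transcript and 8 had at least 2 transcripts above 5% of the gene's TPM. Cxcl12 was made mainly as its alpha form, with 71.62% and 71.35% of the gene. The beta form held 13.89% and 16.37%, and the gamma form held 8.61% and 7.26%. A transcript with a retained intron held the remaining 5.88% and 5.02%. The order of the 3 coding forms was the same in both libraries, with separate intervals.

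Their coding ends show what distinguishes these forms. The 3 share their first 267 coding nt, of which the last 27 are printed in lower case, and capitals mark the bases that follow, stop codon included. All begin at chr6:117173553 on the plus strand, and the last coding base is 117173582 for alpha, 117178598 for beta and 117176179 for gamma, so that the beta and gamma ends cross an intron.
Cxcl12 alpha form: gagtacctggagaaagctttaaacaagTAA
Cxcl12 beta form: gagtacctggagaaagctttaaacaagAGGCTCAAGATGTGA
Cxcl12 gamma form: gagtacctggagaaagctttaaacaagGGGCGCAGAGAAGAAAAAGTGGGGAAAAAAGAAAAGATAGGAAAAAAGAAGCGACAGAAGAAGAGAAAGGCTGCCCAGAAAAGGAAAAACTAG
The alpha form stops at once after the shared part, the beta form adds 15 nt and the gamma form 93 nt. The gamma end is rich in codons for basic residues and is known for binding heparan sulfate.

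Other members differed in the share of their TPM that annotated coding transcripts held. For Ccr2, 4 coding transcripts with the same coding length of 1122 nt made up the whole gene. Coding transcripts of Ccl2 held 90.6% and 89.3%. Ccl27a, with 20 transcripts in the tables, had 66.6% and 72.5% in coding ones. For Cxcl16 they held 49.3% and 53.0%, a transcript marked for nonsense-mediated decay holding 48.15% and 41.32%. For Ccl9 they held 37.5% and 38.0%, the rest lying in a short processed transcript of 398 nt. Ccl6 differed between the pools, at 54.0% and 32.9%, with a retained-intron transcript as the remainder. The intervals of its coding transcript, 3.15 to 5.15 TPM and 1.45 to 3.01 TPM, did not overlap. For all of these genes but Ccr2, the gene level is thus partly a level of transcripts not annotated as protein coding. The Cxcl16 transcript marked for decay still has a coding length of 702 nt, beside 741 nt for the coding one.

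**Figure D3:**
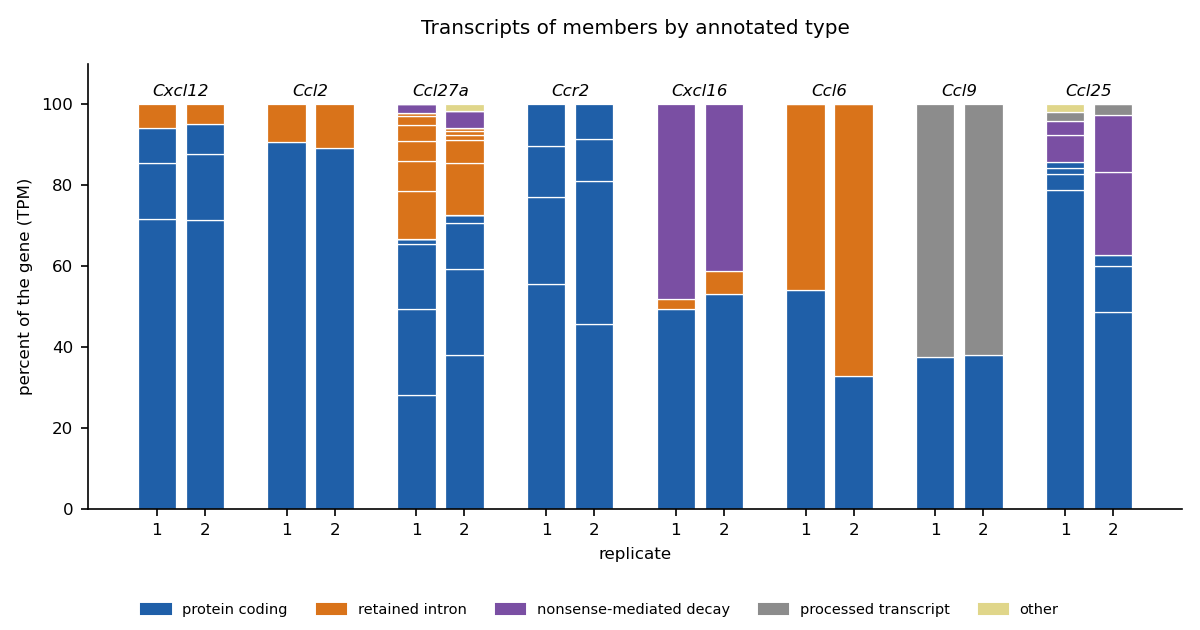
Percent of each gene's TPM by transcript for the 8 detected members with at least 2 transcripts above 5%, stacked per library and coloured by annotated type. Cxcl12, Ccl2 and Ccr2 are mainly protein coding in both libraries, while the coding share of Ccl25 is 85.8% in replicate 1 and 62.7% in replicate 2.

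Between the pools, Ccl25 had the widest difference among detected members. Ratios are of replicate 2 over replicate 1 on TPM scaled by TMM, which adds 0.07 to the log2 ratio. Among the 22 detected members the SD had a median of 9.82% of the mean, and 16 (72.7%) had a log2 ratio within 1 SD for genes of like level, beside 82.5% of all detected protein-coding genes. Over the 25 members with a mean of at least 1 TPM the median log2 ratio was -0.11, with 18 higher in replicate 1 and 7 in replicate 2. All genes with a mean of at least 1 TPM had a median of 0.01, with 7277 higher in replicate 1 and 7779 in replicate 2. That median varied with level, and many of the members are low. For protein-coding genes it was -0.11 at 1 to 2 TPM, -0.06 at 2 to 5 TPM and -0.03 at 5 to 10 TPM. At 100 TPM or more it was 0.06. The lean of the members toward replicate 1 is thus in part shared by genes of low level.

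**Figure D4:**
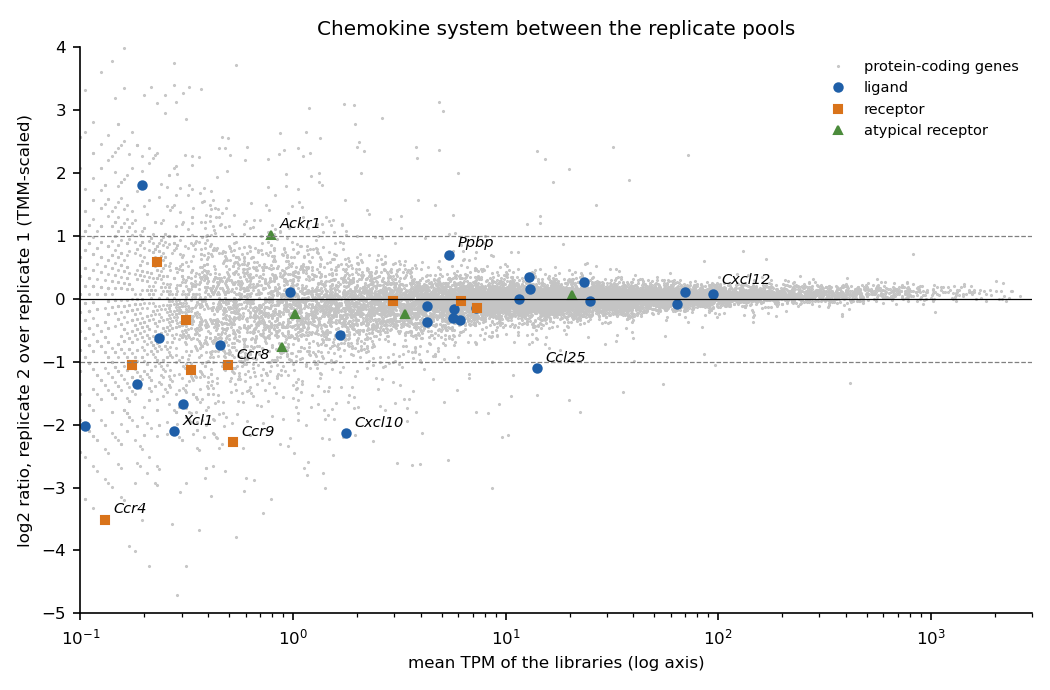
Log2 ratio of replicate 2 over replicate 1 against mean TPM (log axis), with protein-coding genes in grey and members with a mean of at least 0.1 TPM (1 not shown) coloured by role. Dashed lines mark 2-fold, and Ccl25 at -1.10 and Cxcl10 at -2.14 lie below while Cxcl12 at 0.07 lies near 0.

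A gene was called apart between the libraries when its mean was at least 5 TPM, its scaled TPM differed 2-fold or more and its deposited intervals did not overlap. Of 17 members at that level, 1 was apart and higher in replicate 1, beside 0.24% of all genes in that direction and 0.355% in either. It was Ccl25 (ENSMUSG00000023235.9; chromosome 8, 4325210 to 4360020, plus strand), with 19.59 TPM in replicate 1 and 8.67 TPM in replicate 2. The scaled level was 2.15-fold higher in replicate 1, from 473 and 185 reads, with intervals of 18 to 21.8 and 7.8 to 10.8 TPM. The difference lay in the main coding transcript, of 1058 nt, at 15.45 and 4.22 TPM with separate intervals. Its transcripts marked for nonsense-mediated decay were not lower in replicate 2: they had 1.27 and 1.77 TPM and 0.7 and 1.23 TPM, with overlapping intervals. Exons of Ccl25 overlap those of Elavl1 on the other strand over 2.7% of their length, and Elavl1 had 77.39 and 76.94 TPM.

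Marker genes of the thymus moved in the same direction as Ccl25. Thymic epithelial markers summed to 52.4 and 16.5 TPM, with 3 of 5 detected and none at 0 in both libraries. They were led by Prss16 at 30.21 and 9.45 TPM, and Foxn1, the defining transcription factor, was lowest at 1.6 and 0.3 TPM. Markers of thymocytes and T cells summed to 130 and 24.9 TPM, with 6 of 14 detected and none at 0 in both libraries, and all 9 with a mean of at least 1 TPM were higher in replicate 1. Ccr9, the receptor of Ccl25 on thymocytes, had 0.87 and 0.17 TPM from 76 and 17 reads, a scaled level 4.87-fold higher in replicate 1 that falls under 2-fold with a pseudocount of 1 TPM (log2 ratio -0.67). Ccr4, another T cell receptor, had 17 and 1 reads. The part of thymus RNA in the Ccl25, Ccr9 and Ccr4 values was not tested.

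Lowering the minimum mean to 1 TPM gave 2 of 25 members apart, both higher in replicate 1, beside 0.686% of all genes in that direction and 1.04% in either. The added member was Cxcl10, an interferon-induced ligand that attracts T cells and NK cells (ENSMUSG00000034855.9; chromosome 5, 92346638 to 92348889, minus strand). It had 2.92 and 0.63 TPM from 77 and 13 reads, a 4.41-fold higher scaled level in replicate 1. Its receptor Cxcr3 had 0.19 and 0.27 TPM from 8 and 11 reads with overlapping intervals, too few reads to give a direction. Markers of NK and innate lymphoid cells summed to 23 and 4.54 TPM, with 1 of 6 detected and none at 0 in both libraries, led by Gzma at 15.91 and 3.29 TPM. Only 2 of the 6, Gzma and Nkg7 (5.34 and 0.83 TPM), had a mean of at least 1 TPM. Ncr1, the lowest, had 0.11 and 0.03 TPM, and Klrb1c, higher in replicate 2, had 0.13 and 0.17 TPM. Squamous and upper airway markers summed to 47.7 and 14.4 TPM, with all 5 detected. Exons of Cxcl10 overlap Art3 on the other strand over 5.9% of their length, and Art3 had 7.99 and 4.01 TPM. The part of any of these in the Cxcl10 value was not tested.

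With no minimum, 5 of the 54 members above 0 were apart, 4 of them higher in replicate 1, beside 0.847% of all genes in that direction and 1.28% in either. These were Ccl25, Cxcl10, Ccr9 and Ccr4, and the one higher in replicate 2 was Ccl28, a mucosal ligand, with 0 and 7 reads. With a fold of 1.5 and the minimum of 5 TPM, Ppbp joined Ccl25, giving 2 of 17 members beside 0.719% of all genes. Hepatocyte markers, higher in replicate 2, summed to 33.3 and 155 TPM. Markers of macrophages, by contrast, had a median log2 ratio of -0.03. Members described above with monocytes or myeloid cells varied around it. Ccl2 had 0.26, Ccl7 0.15, Ccl9 -0.11, Ccl6 -0.14 and Ccl12 -0.37, while Ccr2 and Ccr1 had -0.03 each.

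**Figure D5:**
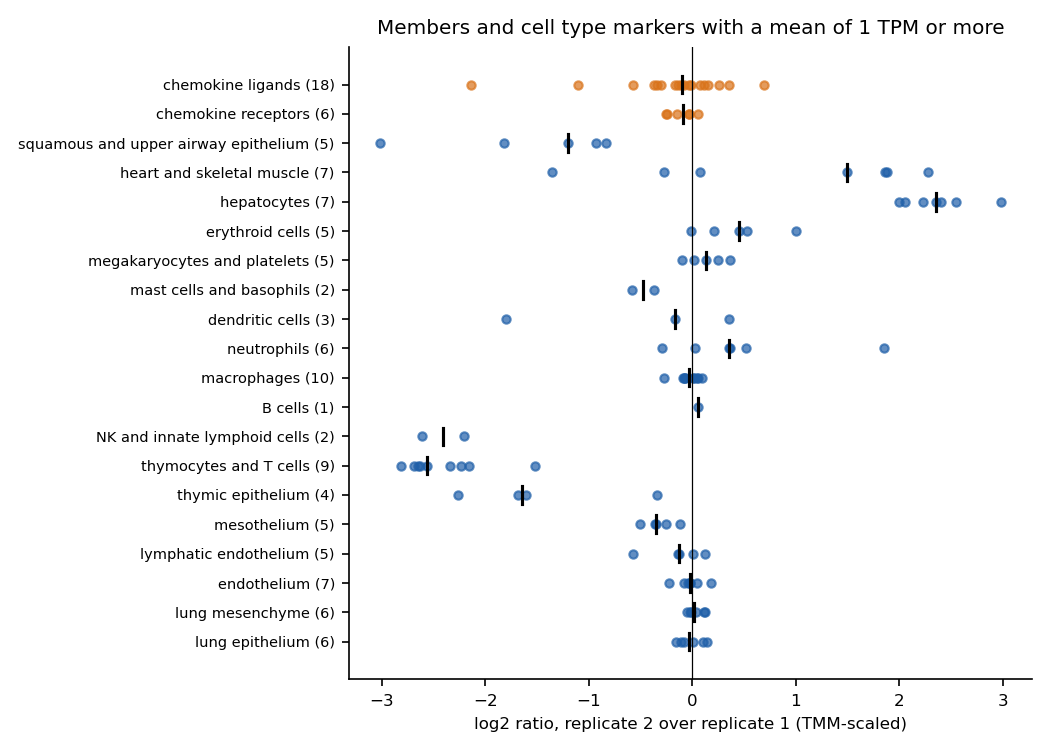
Log2 ratio of replicate 2 over replicate 1 for members (orange, 1 not shown) and cell type markers (blue) with a mean of at least 1 TPM, with the number of genes in brackets and the median as a black bar. Thymocyte, NK and thymic epithelial markers have medians of -2.56, -2.41 (of 2 genes only) and -1.64, hepatocyte markers 2.35, and both chemokine groups lie near 0.

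Promoter sequences of the member with the highest level, Cxcl12, and of the member above a mean of 1 TPM with the widest ratio, Cxcl10, are shown because they differ in the motifs they hold. Both are RefSeq promoters on GRCm38.p6, from 250 bases before to 50 after the start. Capitals mark GGGCGG, the GC box, in Cxcl12, and GAAANNGAA, an interferon-response core, and GGANNTTCC, an NF-kB core, in Cxcl10, each searched on both strands.
Cxcl12, chr6:117168285-117168584, plus strand: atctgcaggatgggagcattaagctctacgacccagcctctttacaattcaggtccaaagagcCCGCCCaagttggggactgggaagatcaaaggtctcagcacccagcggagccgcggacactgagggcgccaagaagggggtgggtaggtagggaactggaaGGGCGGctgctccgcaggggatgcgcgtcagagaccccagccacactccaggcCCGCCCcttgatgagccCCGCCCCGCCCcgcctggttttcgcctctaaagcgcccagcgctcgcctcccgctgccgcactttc
Cxcl10, chr5:92348840-92349139, minus strand: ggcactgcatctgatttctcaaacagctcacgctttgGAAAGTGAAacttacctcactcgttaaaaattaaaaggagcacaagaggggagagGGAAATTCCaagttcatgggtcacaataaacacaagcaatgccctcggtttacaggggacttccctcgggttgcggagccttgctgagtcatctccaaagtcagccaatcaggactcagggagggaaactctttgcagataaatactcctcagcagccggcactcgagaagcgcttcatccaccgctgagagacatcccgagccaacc
The Cxcl12 window holds 5 GC boxes, the last 2 of which share a base. Promoters were matched for 46 of the 60 members. Of these, 11 (23.9%) held a GC box beside 35.7% of 32851 promoters of the same length, and 15 (32.6%) held TATAAA, the TATA box, beside 13.6%. The interferon-response core was in 8 members (17.4%) beside 8.6% of promoters, and the NF-kB core in 8 (17.4%) beside 4.3%. Members were counted by gene, with a match in any promoter of the gene, and the background by single promoter. The shares are therefore not of like units. Only the strings named here were searched, with N as any base. Related sites with other letters, of the NF-kB kind too, stay in lower case and are not counted. Matches describe letters in these windows and show no binding.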

How the data were processed

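Members and gene lists were chosen with earlier results of these data known. The authors deposited, per library, expected counts (estimated reads, not always whole), TPM and FPKM per gene and transcript, the percent of each gene that a transcript holds, and interval bounds of the TPM (a signal column, level not stated), per the file headers. Intervals lie around the posterior mean, so a TPM can fall outside them. They and floors cover counting and read assignment only. The labels name build mm10, and the deposited text GENCODE M4. The quantification program is not given in the sources used here. Names, types and positions came from GENCODE M21 (97.96% of 43346 identifiers matched). TMM scaling used edgeR 4.0.16 on rounded counts, DESeq2 1.42.0 being the alternative (R 4.3.3, Python 3.11.15). The call of genes as apart was tested on simulated counts with sampling noise only. The simulation held no added spread between libraries, so it cannot give the rate of false calls between these pools. A count of 3 reads equals 0.113 and 0.122 TPM at 1 kb. Over 19397 genes the libraries' counts differed beyond sampling noise (chi-square over its degrees of freedom 6.65). Of the members, 1 is counted but not reported here by name. Named with values were all other members detected in both libraries or 1, all apart at either minimum, detected pair partners and, of other lists, up to 3 of the highest genes and the lowest. Members under the minimum that are named beyond this, and Ccr4, Ccl28, Elavl1, Klrb1c and Prox1, were chosen after their values were seen.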

Additional observations from a re-analysis of the deposited data

How the results depend on the processing

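The number of members detected, 22, ranged from 15 to 30 over 7 alternatives, and ligands, 17, from 12 to 19. Receptors depended more on the minimum: 5 were detected, 9 at 0.5 TPM, 3 at 5 TPM, 11 at 10 estimated reads in both libraries, and from 6 to 8 when either library was left out (8 without replicate 2). Members apart between the libraries numbered 1, but 2 at a minimum mean of 1 TPM, 5 with no minimum and 2 at 1.5-fold, where Ppbp joined Ccl25 (all genes: 1.04%, 1.28% and 0.719%). Ccl25 was apart under every alternative run, but those with a lower minimum or fold could not drop it. DESeq2 size factors gave the same shift of 0.07 as TMM. It also stayed apart with no scaling, with posterior mean TPM and with an exact binomial test of reads, which allows for sampling noise only. Its log2 ratio lay close to the 2-fold limit, at -1.18 with no scaling and -1.03 with posterior mean TPM. No stricter fold was run. With posterior mean TPM or rescaled FPKM, 33 of 44 levels of detected members moved by no more than 1 SD, and Cxcl12, among the other 11, went from 94.4 to 92.3 and 99.4 TPM. The mean of Ccl25, 14.1 TPM, is 8.67 without replicate 1. A pseudocount of 1 TPM brought the log2 ratio of Cxcl10 from -2.14 to -1.24, Ccr9 from -2.28 to -0.67 and Ccr4 from -3.51 to -0.28 (-1.49 at 0.1 TPM), the last 2 then under 2-fold. No ratio called apart changed sign. No paired analysis was possible because there is a single group. Depth limits members with few reads, such as Ccr3 at 7 and 3 and Xcl1 at 5 and 1.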

Other observations

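Of genes outside the naming rule that bind members or their receptors, Cd74, the invariant chain that also serves as a receptor of Mif, had 53.5 and 18.24 TPM and was apart between the libraries, higher in replicate 1. It was named after its values were seen. Gpr182, a scavenger of chemokines on endothelium, had 10.0 and 8.71 TPM, and Cmklr1, the chemerin receptor, 17.97 and 14.6 TPM. Neither was apart between the libraries. Neutrophil markers summed to 40.4 and 51.9 TPM, with 5 of 8 detected. Most of that sum was S100a8 at 22.57 and 30.8 TPM and S100a9 at 9.15 and 11.09 TPM. Ly6g was lowest at 0.16 and 0.24 TPM. The neutrophil receptors Cxcr1 and Cxcr2 had at most 0.1 TPM in either library.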
